A study of Homo sapiens with 6 samples.

Results

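The genes followed here are 5 of the carcinoembryonic antigen-related cell adhesion molecule (CEACAM) family and the 3 trefoil factors (TFF), measured in PANC-1, a human cell line from a pancreatic ductal carcinoma, with and without a knockdown of RRM2, the small subunit of ribonucleotide reductase. The members were named by gene, as CEACAM1, CEACAM5, CEACAM6, CEACAM7, CEACAM19, TFF1, TFF2 and TFF3, and make up 8 of the 42902 Gene IDs of the deposited count table. They were chosen by name with their measured counts in shRRM2 against shNC known, so the shRRM2 against shNC values of the members are given as a description, with no test. Per the labels, RNA sequencing covered 6 libraries, 3 of cells carrying a control hairpin with no target (shNC, genotype WT in the labels) and 3 of cells carrying a hairpin directed at RRM2 (shRRM2, headed si-RRM2 in the count table). All 6 are the same cell line in culture, and the control carries a hairpin too. The labels name neither the number of hairpins or clones nor separate cultures, so every p-value below reflects only how far these libraries scatter, which could be technical scatter.

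CEACAM proteins are immunoglobulin-fold glycoproteins of the cell surface. CEACAM1 crosses the membrane and can carry a cytoplasmic tail with inhibitory tyrosine motifs, and it binds itself and other CEACAM proteins on neighbouring cells. CEACAM5, the carcinoembryonic antigen measured in the serum of patients with gastrointestinal tumours, CEACAM6 and CEACAM7 are held on the surface of gut and pancreatic epithelia by a glycosylphosphatidylinositol (GPI) anchor. CEACAM19 is a less studied membrane member of the family. Trefoil factors are small secreted peptides with disulfide-linked loops that mucous cells release together with mucins, TFF1 and TFF2 mainly in the stomach and TFF3 mainly in the intestine. In pancreatic tumours, CEACAM5, CEACAM6 and the trefoil factors are known as genes of the classical, gland-like expression subtype.

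Total counts ran from 16606947 to 23300433 per library. RRM2 had 3567, 4435 and 3342 counts in shNC against 716, 808 and 716 in shRRM2, which is 199.7 ± 6.38 against 40.2 ± 0.607 CPM (counts set to the same total in each library; mean ± SD, n = 3 each) and goes with the labels (log2 fold change -2.31, SE 0.0443, adjusted p = 3.7e-29 by edgeR's quasi-likelihood test). With an adjusted p threshold of 0.05, 8261 of the 15866 genes that passed the filter on low counts differed between the groups, 52.1% of those tested, with 26.0% higher and 26.1% lower in shRRM2. Differences at this threshold were therefore common, and counts for any gene group below are to be read against these shares.

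Of the 8 members, 5 had at least 1 count in some library and 3 had none in any library. CEACAM1, with 806 counts over the 6 libraries, and CEACAM19, with 316, passed the filter. The other 6 were far below it, CEACAM7 with 9 counts, TFF2 with 5 and CEACAM6 with 1. CEACAM5, TFF1 and TFF3 were at 0 throughout. The RNA of this set in PANC-1 thus came almost wholly from 2 genes, and the epithelial GPI-anchored CEACAM genes and the trefoil factors were at or near the detection limit in both groups. A count of 0 in all 3 libraries of a group allows up to 3 counts over the group, or 0.0519 CPM in shNC against 0.0545 CPM in shRRM2, a limit that covers counting error only. In bulk RNA, a change in the number of cells with a transcript and a change in the amount per cell cannot be told apart.

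The start sites of CEACAM1, CEACAM5, CEACAM6 and CEACAM7 lie in similar DNA, which is shown because these 4 related promoters stand before 1 gene with a large measured difference and 3 genes with hardly any RNA. Each line holds the 250 bases before the annotated start (RefSeq, GRCh38.p14, chromosome 19), read 5′ to 3′ on the gene's own strand, and the start follows the last base. The stretches are chr19:42528482-42528731 on the minus strand for CEACAM1, chr19:41708376-41708625 on the plus strand for CEACAM5, chr19:41755280-41755529 on the plus strand for CEACAM6 and chr19:41688271-41688520 on the minus strand for CEACAM7. Capitals mark matches, on either strand, to those among 12 searched motifs that occur in under 20% of the 35116 RefSeq promoter windows of this length.
CEACAM1: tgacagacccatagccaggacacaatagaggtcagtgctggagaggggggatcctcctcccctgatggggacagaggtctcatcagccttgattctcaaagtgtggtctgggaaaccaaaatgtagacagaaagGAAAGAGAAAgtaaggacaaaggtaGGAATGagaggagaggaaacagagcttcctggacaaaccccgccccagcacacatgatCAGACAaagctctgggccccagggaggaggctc
CEACAM5: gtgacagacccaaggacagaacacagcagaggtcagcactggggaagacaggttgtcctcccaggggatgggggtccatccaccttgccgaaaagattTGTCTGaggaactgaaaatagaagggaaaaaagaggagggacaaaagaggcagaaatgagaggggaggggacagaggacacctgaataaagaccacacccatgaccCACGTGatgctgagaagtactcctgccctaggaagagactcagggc
CEACAM6: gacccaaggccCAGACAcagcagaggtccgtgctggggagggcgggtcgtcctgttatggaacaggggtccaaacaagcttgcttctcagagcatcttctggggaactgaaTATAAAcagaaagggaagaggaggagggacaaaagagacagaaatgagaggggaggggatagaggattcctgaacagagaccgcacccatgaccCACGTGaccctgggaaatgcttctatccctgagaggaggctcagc
CEACAM7: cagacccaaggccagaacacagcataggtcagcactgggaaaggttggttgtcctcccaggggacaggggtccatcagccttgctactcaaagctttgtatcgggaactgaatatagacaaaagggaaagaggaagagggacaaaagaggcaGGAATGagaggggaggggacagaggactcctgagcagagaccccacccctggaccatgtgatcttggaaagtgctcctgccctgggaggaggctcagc

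In pairwise alignment, the CEACAM5 and CEACAM7 stretches shared 80.5% of aligned positions, CEACAM6 and CEACAM7 79.9%, and CEACAM5 and CEACAM6 74.6%. CEACAM1 was the least similar of the 4, with 71.9% to CEACAM7, 68.2% to CEACAM6 and 66.2% to CEACAM5. The CEACAM1 stretch holds an interferon response motif (here GAAAGAGAAA, a motif in 3.02% of all windows) at -116 to -107 from the start, which none of the other 3 has. It also holds a TEAD motif (CATTCC, 11.9%) at -91 to -86, as CEACAM7 does at -98 to -93, and the SMAD motif CAGACA (13.6%) at -33 to -28, which CEACAM5 and CEACAM6 carry farther from the start, at -152 to -147 and -239 to -234. The E-box bound by USF factors (CACGTG, 6.34%) is at -46 to -41 in CEACAM5 and -45 to -40 in CEACAM6 and has no match in the CEACAM1 or CEACAM7 window. CEACAM6 alone has TATAAA (10.7%), at -139 to -134. The NF-kB motif matched 3 times in CEACAM1, where 2 of the matches overlap each other, and 1 time in CEACAM5, but 54.4% of all windows hold it and it is not capitalised. The letters of the motifs of AP-1 (TGANTCA, in 6.57% of all windows), the Y-box (CCAAT, in 32.0%), GATA factors (letters AGATAA, in 9.17%), FOXA factors (letters TGTTTAC, in 2.98%) and the SMAD palindrome (GTCTAGAC, in 0.182%) are not in these 4 windows. A match is a match of letters, and no binding was measured in this series.

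CEACAM1 (Gene ID 634, chr19:42507306-42528481) had 32, 50 and 27 counts in the shNC libraries against 255, 220 and 222 in the shRRM2 libraries. Scaled to library size, these were 1.83, 2.17 and 1.64 CPM in shNC against 14.4, 11.1 and 12.3 CPM in shRRM2. The lowest shRRM2 library lay far above the highest shNC library, and the groups did not overlap. Group means were 1.88 ± 0.268 and 12.6 ± 1.70 CPM (SD, n = 3), and the fitted difference was 2.72 on the log2 scale (SE 0.17), or 6.58-fold. Ordered by that difference, CEACAM1 stood at place 55 from the top among the 15866 genes of the fit, of which 827 differed upward by at least 1 on the log2 scale. It was 1 member called of the 2 that passed the filter, beside 52.1% of all genes, and since its own contrast chose it, nothing is read from that count.

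**Figure D1:**
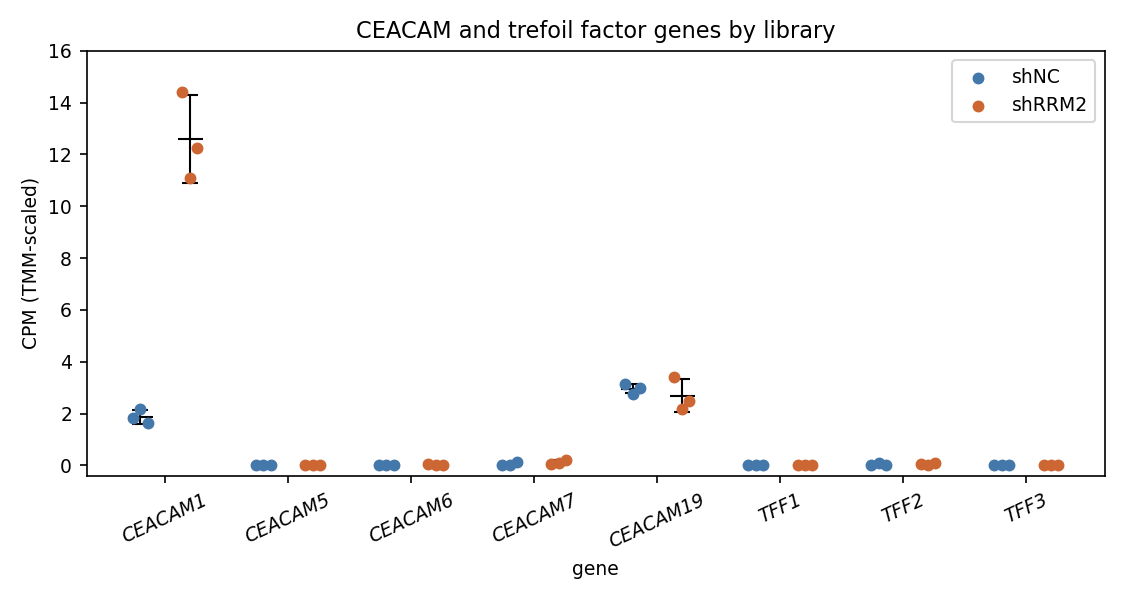
CPM of the 8 members in each of the 6 libraries, with 3 shNC and 3 shRRM2 points per gene and bars for the group mean ± SD. CEACAM1 separates the groups (1.64 to 2.17 against 11.1 to 14.4 CPM), CEACAM19 overlaps, and the other 6 members lie at or close to 0.

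CEACAM19 (Gene ID 56971, chr19:44665860-44684355) had 55, 64 and 49 counts in shNC against 60, 43 and 45 in shRRM2. The scaled levels were 3.14, 2.78 and 2.98 CPM in shNC against 3.39, 2.16 and 2.49 CPM in shRRM2. One shRRM2 library was above every shNC library and the others were below them, so the groups overlapped. The means were 2.96 ± 0.184 and 2.68 ± 0.638 CPM, with a fitted log2 difference of -0.15 (SE 0.23), smaller than its own error.

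Set per kilobase of merged exon, so that the genes can be compared, CEACAM19 was the more abundant of the pair in shNC, with 0.570 ± 0.0353 CPM per kb against 0.340 ± 0.0485 for CEACAM1. In shRRM2 the order was turned, with 2.28 ± 0.308 CPM per kb for CEACAM1 and 0.515 ± 0.123 for CEACAM19. This held in each library: CEACAM19 was above CEACAM1 in all 3 shNC libraries and below it in all 3 shRRM2 libraries. Of the 288 counts that the 12 CEACAM genes examined had in shNC, 168 (58.3%) were of CEACAM19 and 109 (37.8%) of CEACAM1. Of their 862 counts in shRRM2, 697 (80.9%) were of CEACAM1, 148 (17.2%) of CEACAM19 and 17 of the other 10 genes. The CEACAM RNA of the control cells was mainly CEACAM19, and that of the knockdown cells mainly CEACAM1.

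The GPI-anchored members lie together on chromosome 19, on the centromeric side of CEACAM1. CEACAM5 (Gene ID 1048, chr19:41708626-41730519), the carcinoembryonic antigen itself, had 0 counts in each of the 6 libraries. CEACAM6 (Gene ID 4680, chr19:41755530-41772211), which is linked to resistance to cell death on loss of attachment, had a single count, in shRRM2 replicate 1. CEACAM7 (Gene ID 1087, chr19:41673303-41688270), a gene of differentiated colon and pancreatic duct epithelium, had 0, 0 and 2 counts in shNC against 1, 2 and 4 in shRRM2. The groups overlap for CEACAM7, and a difference in these genes was not detectable at this depth. No fold is given for CEACAM5 or CEACAM6, since both groups were at or under the limit of 3 counts.

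The trefoil genes sit side by side on chromosome 21. TFF1 (Gene ID 7031, chr21:42362282-42366535), a peptide of gastric surface mucous cells, had no count. TFF2 (Gene ID 7032, chr21:42346357-42350994), a peptide of gastric gland mucous cells, had 0, 2 and 0 counts in shNC against 1, 0 and 2 in shRRM2. TFF3 (Gene ID 7033, chr21:42311667-42315409), the goblet cell peptide, had no count. Neither group held more than 3 counts of any trefoil gene, so no direction can be given.

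The rest of the CEACAM family was as sparse as its epithelial branch. None of the 7 other CEACAM genes examined passed the filter. The granulocyte genes CEACAM4 and CEACAM8 were at 0, CEACAM3 and CEACAM21 had 1 count each and CEACAM18 had 2. CEACAM16, an inner ear protein, had 4 counts in either group, and CEACAM20 had 5 in shNC against 1 in shRRM2. No CEACAM gene other than CEACAM1 was both detected above the filter and apart between the groups.

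The pregnancy-specific glycoproteins (PSG) are the secreted branch of the same family, made in the placenta, and their genes follow CEACAM1 on chromosome 19. Of the 10 PSG genes, 6 passed the filter, and all 6 were higher in shRRM2 (median log2 difference 0.83, against -0.01 over all tested genes, with 26.0% of those called higher). PSG6 passed the filter only through its shRRM2 libraries, so this count and median lean towards genes that differ. PSG6 had 16, 17 and 8 counts in shNC against 62, 91 and 57 in shRRM2, with no overlap, and rose from 0.713 ± 0.215 to 3.75 ± 0.745 CPM (n = 3 each; log2 fold change 2.38, SE 0.291, adjusted p = 2.1e-08). PSG2 had 15, 16 and 14 counts in shNC against 63, 63 and 25 in shRRM2, where 1 library was well under the other two (log2 fold change 1.76, SE 0.340, adjusted p = 4.7e-05). PSG4, the most abundant of them, rose from 14.4 ± 0.887 to 25.4 ± 2.00 CPM (n = 3 each; 0.82, SE 0.0926, adjusted p = 4e-09). PSG1 rose by 0.83 (adjusted p = 0.0023), PSG9 by 0.66 (adjusted p = 0.0029) and PSG5 by 0.52 (adjusted p = 0.0011) on the log2 scale. PSG3, PSG7, PSG8 and PSG11 stayed below the filter with at most 25 counts each. PSG8 went the other way without overlap, with 5, 7 and 6 counts in shNC against 3, 1 and 3 in shRRM2. Summed over a group, PSG3 had 5 counts in shNC and 7 in shRRM2, PSG7 had 2 and 12, and PSG11 had 2 and 7. The pseudogene PSG10P passed the filter and was not called (log2 difference 0.37, adjusted p = 0.37).

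Because PSG genes resemble each other closely, their levels were also summed. The sum was 28.5, 28.8 and 30.5 CPM in shNC against 52.4, 51.2 and 52.6 CPM in shRRM2, or 29.2 ± 1.09 against 52.1 ± 0.754 (SD, n = 3), without overlap. The PSG genes were chosen with earlier results of these data in view, and the direction of CEACAM1 is no independent support for theirs.

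**Figure D2:**
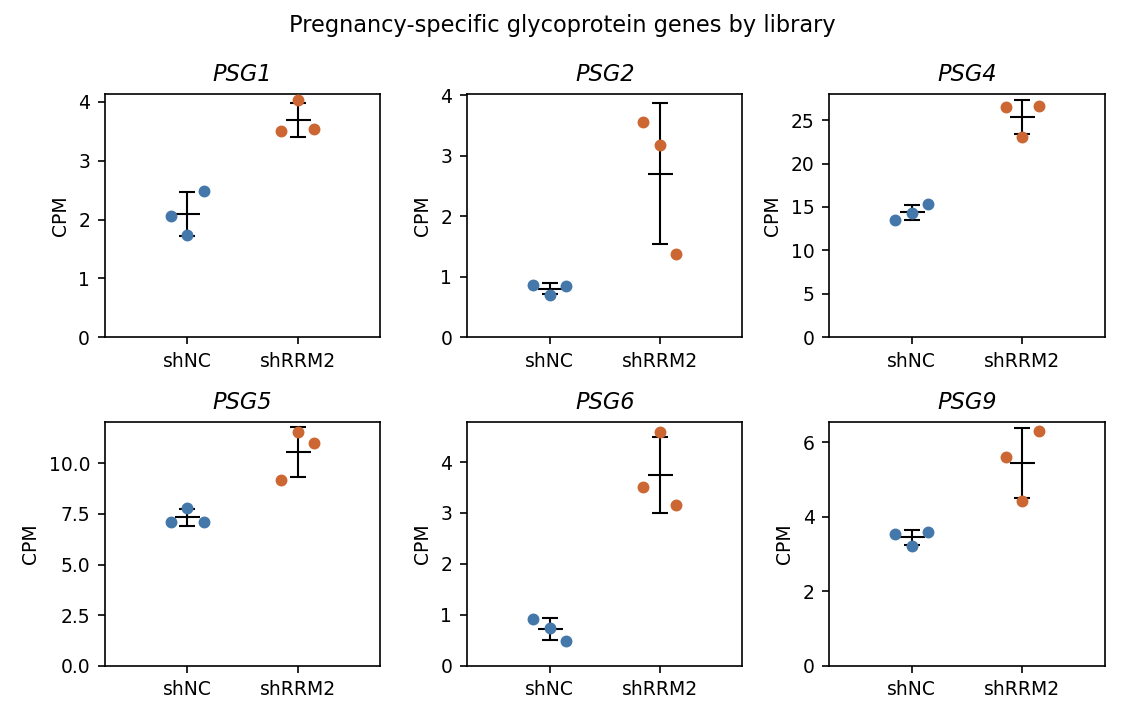
CPM of the 6 PSG genes that passed the filter, 1 panel per gene, by library, with bars for the group mean ± SD. All 6 genes were called higher in shRRM2, beside 26.0% of all tested genes. In PSG2, 1 shRRM2 library is low (1.38 CPM against 3.17 and 3.56). The share of all tested genes whose libraries separate by group was not counted, so nothing is read from the separation of points in these panels.

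How reads that fit several family members were counted is not given in the sources used here, so values of genes with much shared sequence are uncertain. Over GENCODE 29 transcripts, 4.28% of the 50-base windows of CEACAM1 occur letter for letter in another gene, and 0.469% of its 100-base windows, the latter in CEACAM3 and LIPE-AS1. For CEACAM19 the shares are 1.86% and 0.398%. CEACAM5 has 16.3% and 12.6% and CEACAM6 6.99% and 1.73%, with AC243967.1 among the genes that share them, the highest shares among the members. CEACAM7, TFF1, TFF2 and TFF3 share no window of either length. The 10 PSG genes share 15.5% to 36.6% of 50-base windows and 2.43% to 15.3% of 100-base windows.

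**Figure D3:**
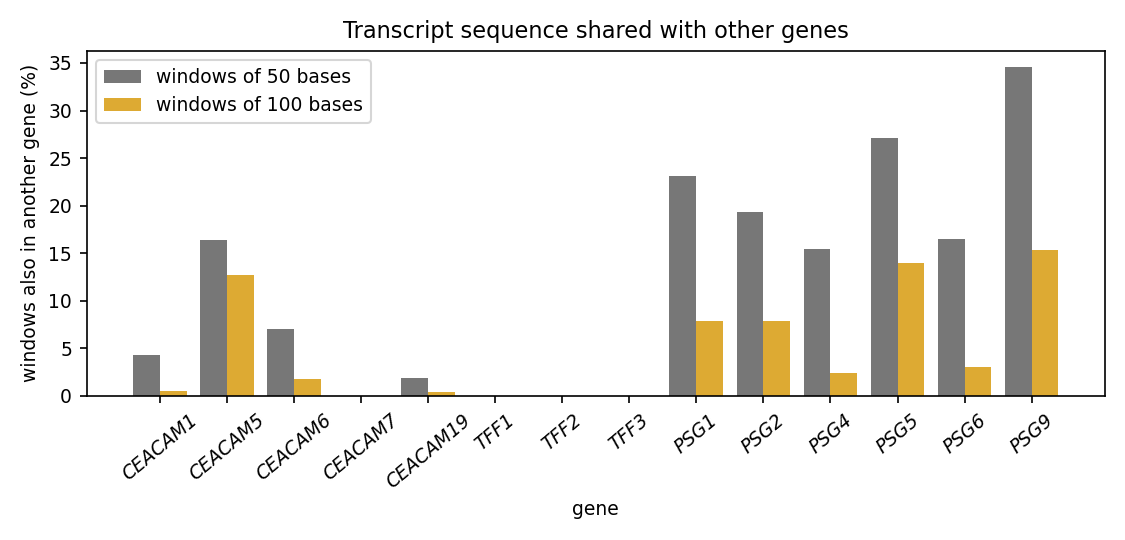
Share of 50-base and 100-base transcript windows of each member and of the 6 tested PSG genes that also occur in another gene, in percent. CEACAM1 and CEACAM19 are at 4.28% and 1.86% for 50 bases, and the PSG genes shown lie between 15.5% and 34.6%.

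Overlapping genes bear on both detected members, because the strand setting of the counting is not given in the sources used here. LIPE-AS1, a long noncoding RNA annotated on the other strand, spans the whole of CEACAM1. It had 22, 21 and 12 counts in shNC against 32, 18 and 14 in shRRM2, overlapping groups with a log2 difference of 0.26 (adjusted p = 0.60). LOC105372407, inside CEACAM1, had 12 counts in all. Summed over a group, LIPE-AS1 thus had 55 and 64 counts where CEACAM1 had 109 and 697. CEACAM19 shares 303 bases with PVR, the poliovirus receptor, which had 112 ± 1.75 CPM in shNC against 111 ± 2.06 in shRRM2 (n = 3 each; log2 difference -0.01, adjusted p = 0.80).

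Genes around the members moved in both directions, with more of them higher than lower near the CEACAM genes and equal numbers near the trefoil genes. Of all tested genes, 26.0% were higher and 26.1% lower. Within 500 kb of CEACAM1, 15 genes were tested, of which 4 were higher (26.7%, close to the share of all tested genes) and 2 lower (13.3%) in shRRM2. LIPE, the hormone-sensitive lipase gene 79.9 kb away, went the other way from CEACAM1, with 391, 452 and 355 counts in shNC against 198, 233 and 201 in shRRM2 (log2 fold change -0.90, SE 0.0995, adjusted p = 2.8e-09). DEDD2 rose by 0.54, CIC by 0.27, PSG1 by 0.83 and PSG6 by 2.38. Within 1 Mb of CEACAM1, 13 of 29 tested genes were higher and 3 lower. The 6 PSG genes were all among those 13, and of the 23 others 7 were higher (30.4%, against 26.0% of all tested genes) and 3 lower. These 23 still include PSG11-AS1 (higher by 0.98) and the pseudogene PSG10P (not called), which lie among the PSG genes.

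**Figure D4:**
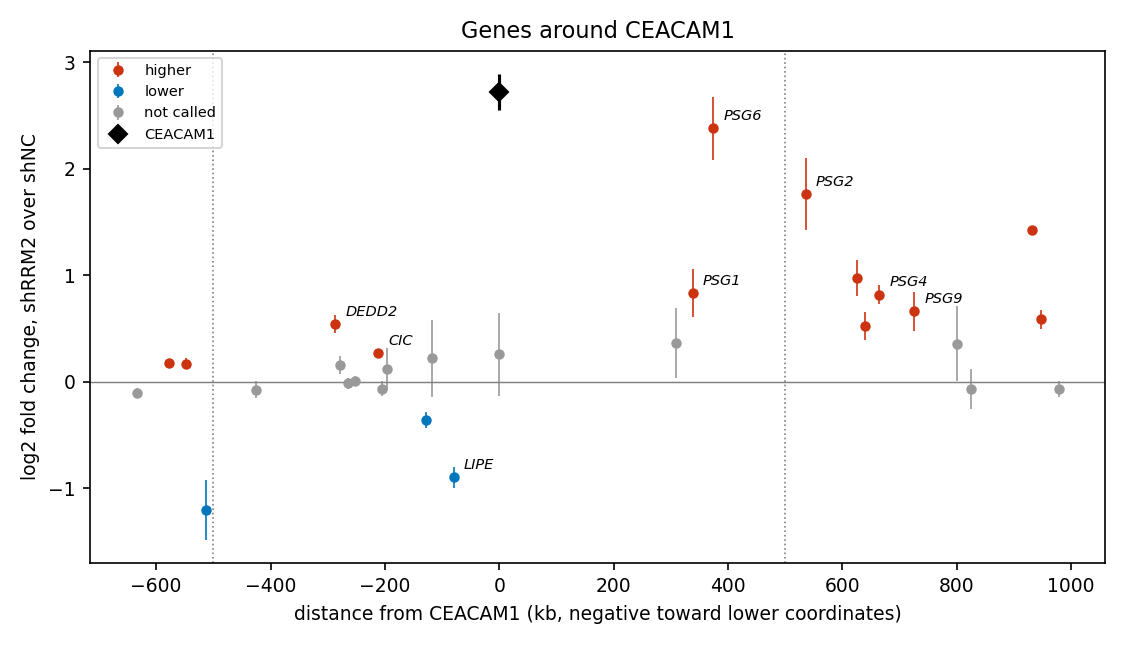
Log2 difference (shRRM2 over shNC) of tested genes against their distance from CEACAM1 in kb, with error bars of 1 SE. CEACAM1 (2.72) and PSG6 (2.38) are the highest points and LIPE (-0.90) lies among the lowest.

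Around CEACAM5, CEACAM6 and CEACAM7, 7 of 21 tested genes were higher (33.3%, against 26.0% of all tested genes) and 3 lower (14.3%) within 500 kb. This window shares tested genes with that of CEACAM1, the called DEDD2 and CIC among them. Without shNC replicate 3, 5 were lower. TGFB1, the ligand of the TGF-beta pathway, rose by 0.60 (SE 0.0347, adjusted p = 4.2e-16), the receptor kinase gene AXL by 0.45 and CYP2S1 by 0.91, and ARHGEF1 and RABAC1 each rose by 0.17. EXOSC5 fell by 0.51 and DMAC2 by 0.21. RPS19, the nearest tested gene at 88.0 kb, had a log2 difference of -0.10 (adjusted p = 0.056). RPS19, TGFB1 and AXL were counted in every library, in the same stretch as the 3 members that gave almost no reads.

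CEACAM19 had 22 tested neighbours within 500 kb, 11 of them higher and 3 lower, while its own groups overlapped. CEACAM16-AS1 at 14.7 kb rose by 0.81 (SE 0.280, adjusted p = 0.016) and BCL3, an NF-kB cofactor at 63.4 kb, by 0.46 (SE 0.0567, adjusted p = 2.9e-08). The adhesion genes BCAM and NECTIN2 rose by 0.60 and 0.41, the NF-kB subunit gene RELB by 0.43, ZNF227 by 0.51, BLOC1S3 by 0.51, ZNF226 by 0.40, ZNF180 by 0.30, PPP1R37 by 0.25 and CLPTM1 by 0.23. TOMM40 fell by 0.33, GEMIN7 by 0.37 and CLASRP by 0.22.

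The trefoil cluster lies between a pair of genes that moved in opposite directions. TMPRSS3, a serine protease gene 5.36 kb beyond TFF1, had 27, 22 and 29 counts in shNC against 55, 80 and 72 in shRRM2 (log2 fold change 1.42, SE 0.257, adjusted p = 2.1e-05). ABCG1, a cholesterol exporter gene 14.4 kb on the other side of TFF3, had 153, 260 and 132 counts in shNC against 75, 93 and 114 in shRRM2 (-0.89, SE 0.161, adjusted p = 1.7e-05). Both neighbours gave counts in every library, where TFF1 and TFF3 gave none. Of the 8 tested genes within 500 kb, 3 were higher and 3 lower (37.5% each). Besides those named above, SLC37A1 rose by 0.78 and PDE9A by 0.39, and PRDM15 fell by 0.20 and WDR4 by 0.45.

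Most genes listed as binding CEACAM1 or signalling from its tail were expressed, and they moved in both directions. Of 16 such genes 15 were tested, with 5 higher, 7 lower and a median log2 difference of -0.05. PTPN6, the phosphatase SHP-1 that docks on the phosphorylated tail, rose by 0.42 (8.76 ± 1.84 to 11.6 ± 1.07 CPM, n = 3 each, adjusted p = 0.011), and PXN, the focal adhesion protein paxillin, by 0.41 (adjusted p = 5.5e-13). PCNA fell by 0.35 (adjusted p = 4.6e-09). PTPN11, like PTPN6 a phosphatase gene, fell by 0.25 (adjusted p = 9.4e-08). LYN fell by 0.24 and FYN by 0.22, and SRC rose by 0.16. The link of each listed gene to CEACAM1 was not examined here. Without shNC replicate 2, PTPN6 was at 0.25 (adjusted p = 0.155) and 3 of the 15 genes were higher. HAVCR2, which encodes the CEACAM1 ligand TIM-3, was below the filter with 52 counts in all.

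The 8 genes listed for attachment or release of GPI anchors were all tested, although the GPI-anchored CEACAM5, CEACAM6 and CEACAM7 were not. Of these 8, 2 were higher, 3 lower and the median was 0.10. The link of each listed gene to GPI anchors, that of NOTUM included, was not examined here. NOTUM, a secreted hydrolase, rose by 0.49 (adjusted p = 0.0017) and PIGT by 0.21 (adjusted p = 1.3e-05), and PIGU fell by 0.28 (adjusted p = 0.0036, but 0.0771 without shNC replicate 1) and PIGS by 0.22 (adjusted p = 0.00037). Among adhesion and microbe-binding partners of the epithelial surface, 10 of 11 genes were tested, with 7 higher, 3 lower and a median of 0.19. CDH1, E-cadherin, rose by 1.43 from low counts (16, 23 and 11 against 31, 52 and 49, adjusted p = 0.00028) and TGFBR2 by 0.45 (adjusted p = 1.8e-10). TGFBR1 fell by 0.81 (adjusted p = 4.8e-17) and CD55 by 0.60 (adjusted p = 1.3e-17).

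Genes that work with the trefoil peptides were in part expressed although the peptides were not. Of 14 such genes 6 were tested, 5 of them higher, with a median of 1.04 over the 6. MUC5AC, the gastric gel mucin released together with TFF1, had 13, 35 and 29 counts in shNC against 326, 308 and 360 in shRRM2, beside 0 counts of TFF1 in the same 6 libraries. MUC2, the intestinal mucin that goes with TFF3, rose by 1.58 (2.33 ± 0.293 to 6.92 ± 0.937 CPM, n = 3 each, adjusted p = 1.2e-08), beside 0 counts of TFF3. MUC5B rose by 1.25 (adjusted p = 0.003) and CXCR4, a receptor reported for TFF2, by 0.83 (adjusted p = 3e-07). MUC5B passed the filter only through its shRRM2 libraries, so the count and median of this list lean towards genes that differ. MUC6, the gland mucin that accompanies TFF2, had a log2 difference of -0.09 (adjusted p = 0.88). Gel mucin genes share repeats, so their single values are uncertain. AGR3 was at 0 and AGR2, a disulfide isomerase of mucous cells, had 4 counts, all in 1 shRRM2 library.

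Transcription factors described for CEACAM and trefoil genes were present only in part. Of 24 such genes 16 were tested, 9 were higher, 1 lower and the median was 0.39. FOXA1 rose by 1.37 (4.35 ± 0.404 to 11.3 ± 0.43 CPM, n = 3 each, adjusted p = 5e-10), SOX9 by 1.31 (adjusted p = 2.8e-09) and SPDEF, a factor of goblet cell differentiation, by 1.02 (adjusted p = 4.6e-05). HIF1A fell by 0.11 (adjusted p = 0.014), a call lost with scaling by library size alone and without shNC replicate 3 or shRRM2 replicate 3 (adjusted p 0.0687 to 0.109). FOXA2, CDX2, SOX2 and PDX1 were at 0 in every library, as were CEACAM5, TFF1 and TFF3. IRF1, a factor of the interferon response, rose by 0.42. USF1 and USF2, which bind E-boxes, had log2 differences of 0.14 and -0.05 and did not pass the test.

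The members' subtype partners in pancreatic tumours were mostly missing as well. Of 20 classical genes other than the members, 19 were in the table and 3 were tested, while 7 were at 0 in every library, among them REG4, CTSE and CDH17. MYO1A rose by 1.73 (adjusted p = 0.00026) and TSPAN8 by 1.42 (adjusted p = 2.2e-06), and KRT20 had a log2 difference of -0.38 (adjusted p = 0.44). Of 25 basal-like genes 14 were tested, 13 of them higher and 1 lower, with a median of 0.91. KRT17 rose from 35.7 ± 1.27 to 113 ± 2.31 CPM (n = 3 each; log2 fold change 1.66, adjusted p = 1.8e-23), AREG, a ligand of the EGF receptor, by 1.78 (adjusted p = 5.7e-10) and FAM83A by 1.54 (adjusted p = 1.2e-12), and KRT7 fell by 0.07 (adjusted p = 0.044) with overlapping groups. The KRT7 call was lost with DESeq2, other scalings and other filters, and without shNC replicate 1 or 2 or shRRM2 replicate 1 or 3 (adjusted p 0.0558 to 0.333). A low gene passes the filter if it is high in 1 group, so the counts over tested genes lean towards genes that differ.

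**Figure D5:**
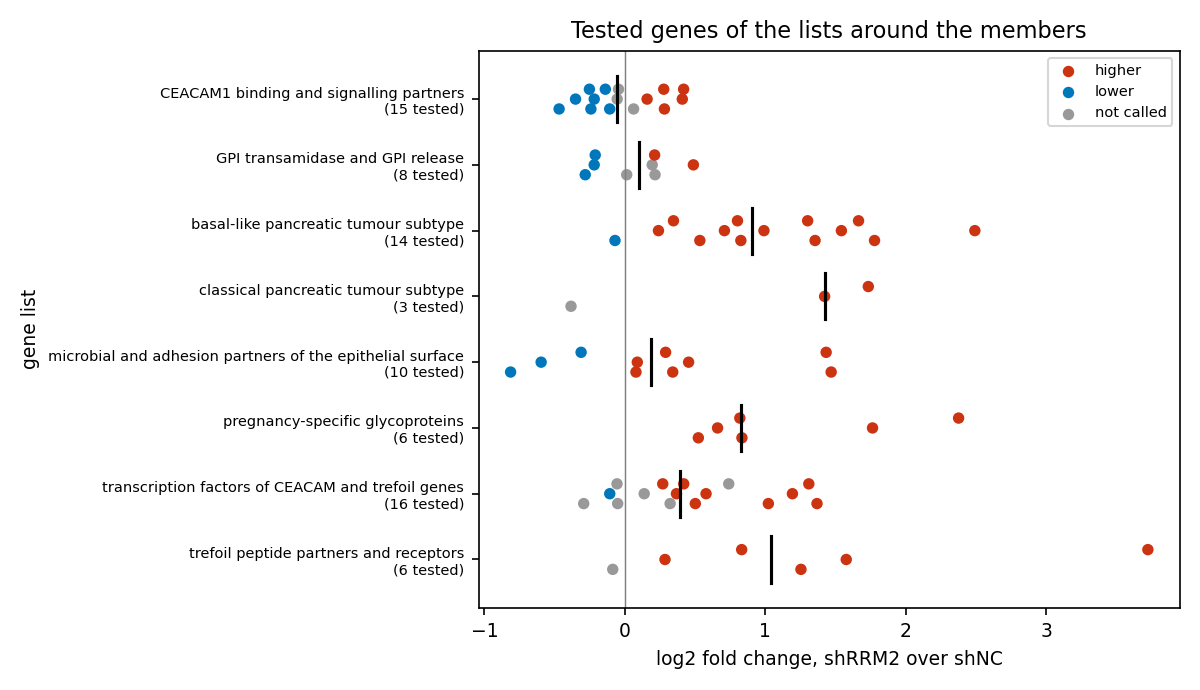
Log2 differences (shRRM2 over shNC) of the tested genes of each list, 1 point per gene, coloured by call, with the list median as a black bar and a line at 0. Medians run from -0.05 for the CEACAM1 partners to 1.42 for the 3 tested classical genes.

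Markers of the labelled cell type were present only in part. Of 9 ductal epithelial genes 6 were tested, with 5 higher and 1 lower. KRT8 rose from 1081 ± 15.3 to 1636 ± 33.1 CPM (n = 3 each) and MUC1 by 0.85 on the log2 scale. The lower gene was KRT7, whose call was lost in most alternatives, as given above. KRT19 had 0 to 6 counts per library and SPP1 none. Since CEACAM1 is also made by granulocytes, lymphocytes and endothelium, their markers were summed too. Of 10 granulocyte genes only LCN2 was tested, an iron-binding protein that epithelia also make, with 3, 4 and 4 counts in shNC against 49, 64 and 62 in shRRM2 (log2 fold change 3.98, SE 0.388, adjusted p = 1.6e-10). The list summed to 0.286 to 0.364 CPM in shNC against 2.77 to 3.59 in shRRM2, and CEACAM8, MPO, FCGR3B, CSF3R and S100A8 were at 0. LCN2 alone made up 2.77, 3.22 and 3.42 CPM of the shRRM2 sums. Of 8 lymphocyte genes 1 passed the filter, the sums of the list were 1.83 to 2.78 and 3.34 to 3.67 CPM, and CD3D, CD3E, CD2, MS4A1 and GZMB were at 0. Of 8 endothelial genes 4 were tested and 3 were higher, VWF by 2.45 (3, 11 and 7 against 41, 41 and 31 counts), CDH5 by 1.44 and ESAM by 0.76, with sums of 67.7 to 73.9 against 93.2 to 96.6 CPM and KDR at 0. Of 9 goblet and gastric mucous genes 3 were tested and 2 were higher, both mucins named above, with sums of 4.57 to 6.56 against 23.4 to 29.9 CPM and CLCA1 at 0. LCN2 and VWF passed the filter only through their shRRM2 libraries, so the counts of tested and higher markers lean towards genes that differ. The part of these marker genes in the CEACAM1 difference was not tested.

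The genes whose levels ran most like those of CEACAM1 over the 6 libraries were FOXP4, SLC12A2, TRIML2, VGLL4 and AP2A2, with Pearson correlations of log2(CPM + 1) from 0.9989 to 0.9997. These 6 points fall into the 2 groups, and 1770 of the 14499 genes compared exceeded 0.95 against CEACAM1. Such a value describes how closely 6 points follow a line, not the size of a difference, and carries no p. AP2A2, for one, had a log2 difference of 0.14. TRIML2 came closest in size too, with 2.60 CPM in shNC against 11.4 in shRRM2. For CEACAM19 the 5 nearest, CCDC28A, RIC8A, FOXK2-AS1 and AP3B1 among them, had correlations from 0.97 to 0.98, and only 15 genes exceeded 0.95.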

How the data were processed

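RNA of 6 PANC-1 libraries was sequenced. Per the labels' protocols, RNA was taken with Trizol, selected by poly-T beads and made into libraries with a directional NEB kit. The RRM2 columns of the table are headed si-RRM2 where the labels say shRRM2, and columns were matched to samples by gene name and number. The authors deposited whole-number read counts per NCBI Gene ID, and the submitters' processing notes name fastp 0.23.4, featureCounts and hg38. The aligner, the annotation and the settings for strand and shared reads were not given in the sources used here.

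From these counts, edgeR 4.0.16 (R 4.3.3) was used with its default filter, TMM factors, a robust quasi-likelihood fit with group alone, and Benjamini-Hochberg adjustment over 15866 genes, two-sided, at 0.05. The SE is the log2 fold change over the square root of F. Symbols and positions were matched by Gene ID to RefSeq GRCh38.p14 (40120 of 42902 IDs, all 8 members), and the unmatched IDs hold 1.25% of counts and stayed in the fit. Merged exon lengths and shared windows used GENCODE 29 (GRCh38). CEACAM1, CEACAM5, CEACAM6 and CEACAM7 had promoter sequences in the table used.

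Members, gene lists and tests were chosen with earlier results of these data known. Named were all members, up to 4 genes per list (called ones first, by largest change, with a mean of at least 1 CPM, 2 per direction where there were such), all called genes within 500 kb of a member and the nearest tested ones, the 5 genes most like each tested member, and RRM2. Genes listed at 0 or below the filter, and the named genes that share a member's sequence or position, were added after their values were seen. So were HAVCR2, KRT20, MUC6, IRF1, USF1, USF2, PTPN11, SRC, LYN, FYN, PSG10P and PSG11-AS1. A few items that the rule names are not reported here. Alternatives were other scaling (RLE, library size alone), other filters, DESeq2 1.42.0, limma-voom (limma 3.58.1), a replicate block, a threshold of 0.01, a 1 Mb window, a pseudocount of 0.25 in place of 1, and each library left out.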

Additional observations from a re-analysis of the deposited data

How the results depend on the processing

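Across all alternatives the log2 difference of CEACAM1 lay between 2.61 and 2.85, with both ends from fits without 1 library (without shRRM2 replicate 1 and without shNC replicate 2), and that of CEACAM19 between -0.35 and -0.005 (without shRRM2 replicate 1 and without shRRM2 replicate 2). With the replicate number as a block they were 2.71 and -0.16, and 8244 genes differed in place of 8261. Same-numbered libraries did not visibly deviate together (correlations of -0.0068, -0.0034 and -0.0208). Whether the numbers pair the samples is not given in the labels, and deviations that are largely counting error cannot decide it. No result turned its direction. The single lower basal-like gene was lost (0) with DESeq2, RLE factors, library size alone, no filter, 1 CPM in 3 libraries, and a threshold of 0.01, and the single lower transcription factor (0) with library size alone and at 0.01. At 0.01, 3 CEACAM1 partners and 4 adhesion partners were higher, in place of 5 and 7. Near CEACAM5, CEACAM6 and CEACAM7, 5 genes were lower with no filter and 6 within 1 Mb, in place of 3. Within 1 Mb, which holds more genes, 13 were higher near CEACAM1, 21 higher and 9 lower near CEACAM19, and 7 higher and 5 lower near the trefoil genes. Without 1 library at a time, all calls ranged from 7433 to 7936, CEACAM1 partners higher from 3 (without shNC replicate 2) to 6, basal-like lower genes from 0 to 1 (0 without shNC replicate 1 or 2, or shRRM2 replicate 1 or 3), lower transcription factors from 0 to 1 (0 without either replicate 3), and genes lower near CEACAM5, CEACAM6 and CEACAM7 from 3 to 5 (5 without shNC replicate 3). The cause of these shifts was not tested. Among 37 named genes, 5 lost their call in at least 1 setting, KRT7, HIF1A, PTPN6 and PIGU among them. With a pseudocount of 0.25, 4 of the 5 genes most like CEACAM1 and 5 of 5 for CEACAM19 were shared. Depth limits the 6 members with 0 to 9 counts, for which differences were not detectable.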
